A study of Camelina sativa with 12 samples.

Results

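Csa03g046520 and Csa17g069360 are camelina (*Camelina sativa*) genes that the study annotates as orthologs of the Arabidopsis transcription factor RAP2.6, and they were followed here in every root library of a salt stress experiment. They are 2 of 49932 genes in the expression matrix. The study placed both on its list of genes whose transcripts differed between *rolD::acdS* and wild-type control roots, so their levels in those 2 groups chose them, and these levels are given below as a description without a test. The numbers in the identifiers place Csa03g046520 on chromosome 3 and Csa17g069360 on chromosome 17.

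All plants were of the DH55 genotype, were 28 days old when roots were taken and had been exposed to 192 mM NaCl (15 dS/m) over the preceding 21 days, and no library came from unsalted roots. Control plants were wild type and were given MgSO4 buffer without bacteria. The *P. migulae* 8R6-treated plants were wild type grown in soil inoculated with *Pseudomonas migulae* 8R6, a bacterium living inside plants and producing ACC deaminase. The *35S::acdS* and *rolD::acdS* plants expressed the bacterial ACC deaminase gene *acdS* of *Pseudomonas* sp. UW4 from a double CaMV 35S promoter or from the root-specific *rolD* promoter of *Agrobacterium rhizogenes*. The study's methods name bacteria or buffer as soil treatments and do not state which of them these lines received. Each promoter was represented by single-insert homozygous material, so promoter and insertion site cannot be told apart. ACC deaminase breaks down ACC, the precursor of ethylene. Each of the 4 groups had 3 replicates, described as biological. The *acdS* transcript has no row in the matrix, so the transgene level could not be checked.

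RAP2.6 belongs to the AP2/ERF family, whose members bind DNA through the AP2 domain and include the ethylene response factors. In Arabidopsis, transcripts of RAP2.6 accumulate after jasmonate, abscisic acid, salt and wounding. Jasmonate responses are held back by JAZ repressors, which are destroyed when jasmonoyl-isoleucine is perceived and whose own genes are induced by the hormone. Camelina is a hexaploid and often carries several homeologs of 1 Arabidopsis gene. Whether the matrix holds a further RAP2.6 gene is unknown here, since identifiers were paired with names only where the study lists them.

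Values are CPM (read counts scaled to a common library total) stored as whole numbers, so 1 CPM was the smallest step. Library sums lay between 887898 and 947036, and between 47332 and 47731 genes were above 0 in a library. The raw depth is unknown. Levels are not divided by transcript length, and where 2 genes are near-identical the counting may have split their reads, which leaves the division between the RAP2.6 genes uncertain. The 4 chlorophyll-binding protein genes named by the study, used as a marker of shoot tissue, summed to 4 CPM in every control library, 3 in every 8R6 library, 4 to 7 in the *rolD::acdS* libraries and 5 to 20 in the *35S::acdS* libraries. One of them, Csa01g026130, was listed at 0 throughout the control and 8R6 groups. The study named Csa01g026130 as up-regulated in *rolD::acdS* and the others as up-regulated in *35S::acdS*, so these sums carry that choice.

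Csa03g046520 carried most of the summed signal of the 2 genes. In control roots it stood at 12, 2 and 4 CPM in replicates 1, 2 and 3, with a mean of 6 ± 5.29 (SD, n = 3). In 8R6-treated roots it stood at 3, 1 and 2 CPM, with a mean of 2 ± 1 (SD, n = 3). In *35S::acdS* roots it stood at 6, 2 and 8 CPM, with a mean of 5.33 ± 3.06 (SD, n = 3). These 3 groups overlapped one another in every pairing, with control replicate 1 as the highest of their 9 libraries. In *rolD::acdS* roots it stood at 56, 27 and 51 CPM, with a mean of 44.7 ± 15.5 (SD, n = 3). All 3 *rolD::acdS* libraries were above all 9 others, the lowest of them at 27 CPM against 12 CPM in the highest of the rest.

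The position of Csa03g046520 among other genes moved with these levels. Of the 48099 genes tested, 37% had a lower mean than Csa03g046520 in control roots, 7.91% in 8R6-treated roots and 33.4% in *35S::acdS* roots. In *rolD::acdS* roots 91.9% of genes had a lower mean, again in CPM not divided by length. The replicate numbered 2 was the lowest of its group for Csa03g046520 in each of the 4 groups.

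Csa17g069360 was close to the smallest step of the data. It stood at 1, 0 and 1 CPM in control roots, with a mean of 0.667 ± 0.577 (SD, n = 3). It was listed at 0 in all 3 of the 8R6 libraries. In *35S::acdS* roots it stood at 0, 0 and 2 CPM, with a mean of 0.667 ± 1.15 (SD, n = 3). In *rolD::acdS* roots it stood at 4, 1 and 6 CPM, with a mean of 3.67 ± 2.52 (SD, n = 3). Replicate 2 of *rolD::acdS* equalled 2 of the control libraries at 1 CPM and lay below replicate 3 of *35S::acdS*, so *rolD::acdS* overlapped both groups and was separate only from the 8R6 group. Even in *rolD::acdS* roots 21.6% of tested genes had a lower mean than Csa17g069360, against 1% in control roots.

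**Figure D1:**
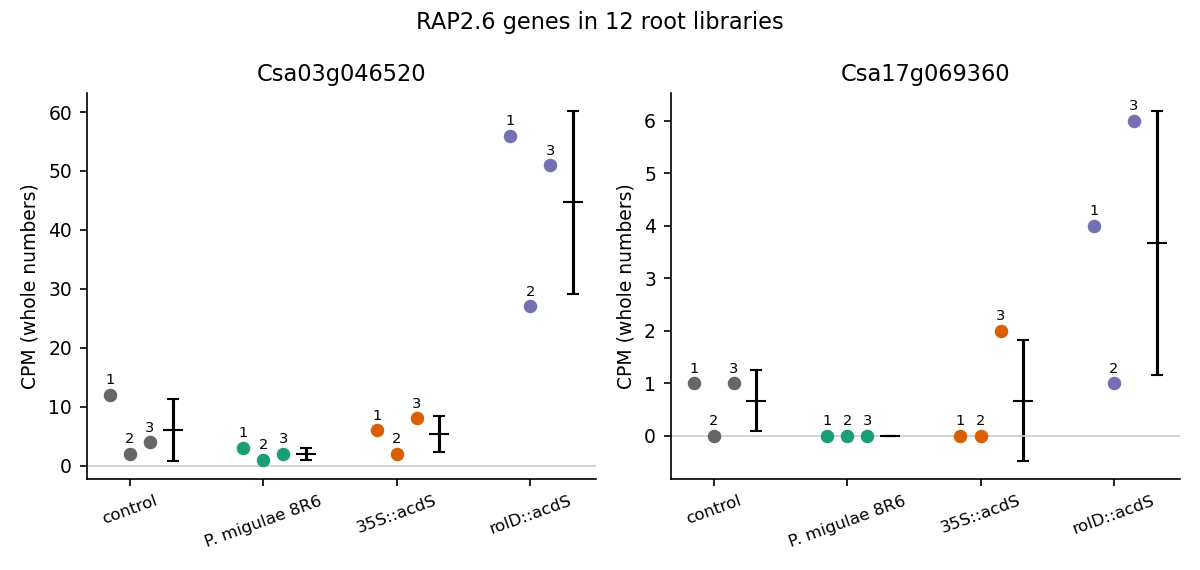
Level of each RAP2.6 gene in CPM, on separate linear scales, in the 12 root libraries; points are libraries with their replicate number, and the bar beside each group is the mean ± SD (n = 3). The 3 *rolD::acdS* libraries of Csa03g046520 sit at 27 to 56 CPM above all others, while Csa17g069360 does not pass 6 CPM anywhere.

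In the contrast that chose the genes, *rolD::acdS* against control, the group means of Csa03g046520 differed by a ratio of 7.44. On the log2(CPM + 0.5) scale used for all fold changes, which understates changes of low genes, the difference was 3.05 with an SE of 0.61, the 2nd largest in size of all tested genes. For Csa17g069360 the ratio of means was 5.5 and the log2 difference 1.76 with an SE of 0.72, the 91st largest. A call needed a limma adjusted p no larger than 0.05 and a log2 fold change above 0.8 in size, and limma called 0.00416% of tested genes here and neither RAP2.6 gene. In the same contrast 2.99% of tested genes had every *rolD::acdS* library above every control library, as Csa03g046520 did. Nothing is read from these counts, since this contrast chose the genes. With bulk roots, more cells of a type that express a gene and more RNA per cell cannot be told apart.

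No difference in Csa03g046520 between 8R6-treated and control roots was detectable. Its level in 8R6-treated roots was lower by 1.14 on the log2 scale (SE 0.61), with an interval at 95% from -2.50 to 0.22 and an adjusted p of 0.874 (limma). Neither RAP2.6 gene passed an unadjusted p of 0.05 in this comparison, as 5.41% of tested genes did, and limma called 0% of all genes. The libraries of both groups overlapped or tied for both RAP2.6 genes, whereas 4.16% of tested genes were separate in 1 direction or the other. No fold is given for Csa17g069360 against the 8R6 group, where it is listed at 0.

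In *35S::acdS* roots, where the same bacterial gene was driven by the 35S promoter, Csa03g046520 differed from control by -0.01 on the log2 scale (SE 0.61, limma adjusted p of 1). The interval ran from -1.37 to 1.35, which is 0.388-fold to 2.55-fold, and a change within these bounds was not detectable. The sign of this small value rested on single libraries: without control replicate 1 it was 0.62, and without *35S::acdS* replicate 2 it was 0.52. Csa17g069360 differed by -0.28 (SE 0.72, adjusted p of 0.946), and by 0.10 without *35S::acdS* replicate 1 or replicate 2. Neither gene passed an unadjusted p of 0.05, against 7.12% of tested genes, neither was separate between the groups, against 7.88%, and limma called 0% of all genes. Comparing the inoculated and *35S::acdS* groups, which share no library with the contrast that chose the genes, Csa03g046520 was higher by 1.13 in *35S::acdS* (interval -0.22 to 2.49, limma adjusted p of 0.483), where 12.1% of tested genes passed an unadjusted p of 0.05, the RAP2.6 genes did not, and 0% were called. Its libraries overlapped there, while 9.77% of tested genes were separate.

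The comparisons of *rolD::acdS* with the other salt-stressed groups used the same *rolD::acdS* libraries that chose the genes, so they are not independent of the choice. Against *P. migulae* 8R6, Csa03g046520 had a ratio of means of 22.3 and a log2 difference of 4.19 (interval 2.83 to 5.55), the 3rd largest in size of all tested genes, with an unadjusted p of 3.42e-05 and a limma adjusted p of 0.0642. Neither RAP2.6 gene was called, and limma called 0.00832% of tested genes; both passed an unadjusted p of 0.05, as 13% of tested genes did. Without control replicate 1 the adjusted p was 0.0293 and Csa03g046520 was called, while leaving out each of the other libraries in turn gave adjusted p values of up to 0.310. All *rolD::acdS* libraries were above all 8R6 libraries for both RAP2.6 genes, as for 5.1% of tested genes.

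Against *35S::acdS*, Csa03g046520 was higher in *rolD::acdS* by 3.06 on the log2 scale (interval 1.70 to 4.42), with a ratio of means of 8.38 and with separate libraries, as for 3.51% of tested genes. Its unadjusted p was 0.000461 and its limma adjusted p 0.347, so it was not called. Csa17g069360 differed by 2.04 (interval 0.46 to 3.63, unadjusted p of 0.0161, adjusted p of 0.567) with overlapping libraries. Both genes passed an unadjusted p of 0.05, as 7.53% of tested genes did, and limma called 0.00416%. The 3 log2 differences of Csa03g046520 that involve *rolD::acdS* were 3.05, 4.19 and 3.06, and the 3 that do not were between -1.14 and 1.13.

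**Figure D2:**
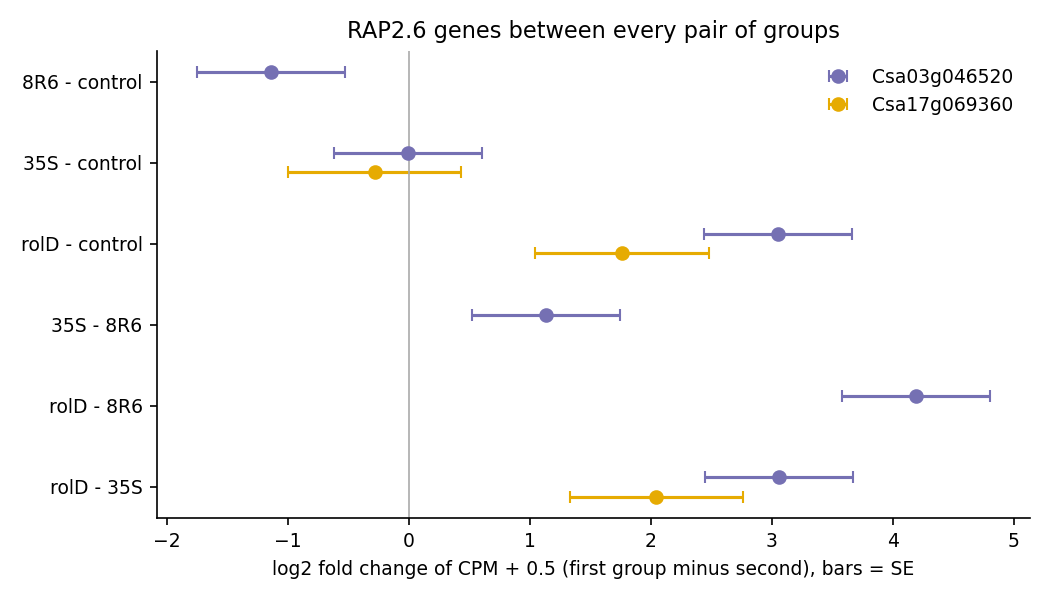
Log2 fold change of CPM + 0.5 (first group minus second) of each RAP2.6 gene for the 6 pairs of groups; bars are the SE from limma, and Csa17g069360 is left out where it is listed at 0 in the 8R6 group. The 3 comparisons with *rolD::acdS* lie at 3.05 to 4.19 for Csa03g046520, and the 3 others between -1.14 and 1.13.

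The division of the signal between the homeologs was not itself used to choose them, but both were chosen as higher in *rolD::acdS* than in control. A share that stays alike between those groups is therefore partly given by the choice. Csa03g046520 was the higher of the pair in 12 of 12 libraries, and Csa17g069360 was listed at 0 in 6 of them. Summed over all libraries, Csa03g046520 held 174 CPM and Csa17g069360 held 15, a share of 92.1% for Csa03g046520. The share in single libraries was 92.3%, 100% and 80% in control, 100% in each 8R6 library, and 100%, 100% and 80% in *35S::acdS*. The *rolD::acdS* libraries had shares of 93.3%, 96.4% and 89.5%. Group means were 93.1% ± 3.48 in *rolD::acdS*, 90.8% ± 10.1 in control and 93.3% ± 11.5 in *35S::acdS* (SD, n = 3).

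While the summed level of the pair went from 6.67 ± 5.69 CPM in control roots to 48.3 ± 17.7 CPM in *rolD::acdS* roots (SD, n = 3), the pooled share went from 90% to 92.4%. No difference in share between the 4 groups was detectable (exact permutation test over 369600 arrangements, p = 0.552), with group means spanning 9.23 percentage points. The log2 ratio of the homeologs gave p = 0.188 in the same exact test. Both results include the *rolD::acdS* and control libraries on which the pair was chosen. For single pairs of groups the exact test cannot go below 0.1 with 3 libraries against 3, and the smallest value, *rolD::acdS* against 8R6, was 0.1 (0.6 after adjustment over the 6 pairs). Where the pair sums to few CPM the share is coarse: if each value was rounded to the nearest whole number, the 100% of 8R6 replicate 2, which rests on 1 CPM, could be as low as 50%, whereas the *rolD::acdS* shares stay between 88.6% and 98.2%.

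Library by library the homeologs had like patterns. Pearson's r between them on the log2(CPM + 0.5) scale was 0.88 over the 12 libraries (Spearman's rho 0.86), and 0.73 without *rolD::acdS* replicates 1 and 3, the libraries farthest from the median. In the 9 libraries outside *rolD::acdS* r was 0.73, where Csa17g069360 takes only the values 0, 1 and 2. These are descriptions with no test, as the points share their groups and both genes were chosen for 1 contrast.

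Of 44043 genes with a mean of at least 2 CPM, those most like the summed RAP2.6 level over the 12 libraries (Pearson's r, log2 scale) were led by Csa01g016720, with r of 0.97. It stood at 25, 17 and 23 CPM in control, 18, 16 and 18 in 8R6, and 19, 18 and 21 in *35S::acdS*. Its *rolD::acdS* libraries stood at 32, 27 and 32 CPM. Its range was far narrower than that of RAP2.6, and *rolD::acdS* again held the highest of the 12 libraries. Csa07g064290 and Csa09g097670, annotated as orthologs of 1 Arabidopsis bHLH transcription factor gene, followed with r of 0.96 and 0.95, and their means went from 8.67 to 31 CPM and from 12.7 to 30 CPM between control and *rolD::acdS* roots. Another bHLH gene, Csa11g013570, had r of 0.92 and means of 5.67 and 10.3 CPM.

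The remaining genes of the 10 most like RAP2.6 were a glutathione S-transferase gene, Csa03g013800 (r of 0.95, means of 3.33 CPM in control and 10 CPM in *rolD::acdS*), the JAZ10 genes Csa13g015820 and Csa20g018590 (r of 0.95 and 0.93), a vacuolar invertase gene, Csa03g015980 (r of 0.92, means of 27.7 and 79 CPM), Csa17g022440 of unknown function (r of 0.91) and Csa04g061180 (r of 0.91, means of 2 and 6.33 CPM). Glutathione S-transferases conjugate glutathione to reactive compounds, and vacuolar invertase splits sucrose. For comparison, the median r of all ranked genes was -0.01, and 13 genes exceeded 0.9. Of the 10, 8 stand on the study's own list for *rolD::acdS* against control, and Csa01g016720 and Csa04g061180 do not. The ranking used the *rolD::acdS* libraries, in which RAP2.6 was chosen as high, so genes higher there rank high. That 8 are on this list follows largely from it and is not independent evidence. In the 9 libraries outside *rolD::acdS*, also part of the ranking, r of the 10 was between 0.69 and 0.93. The 10 share their libraries with RAP2.6, so r here also carries whatever the libraries have in common.

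**Figure D3:**
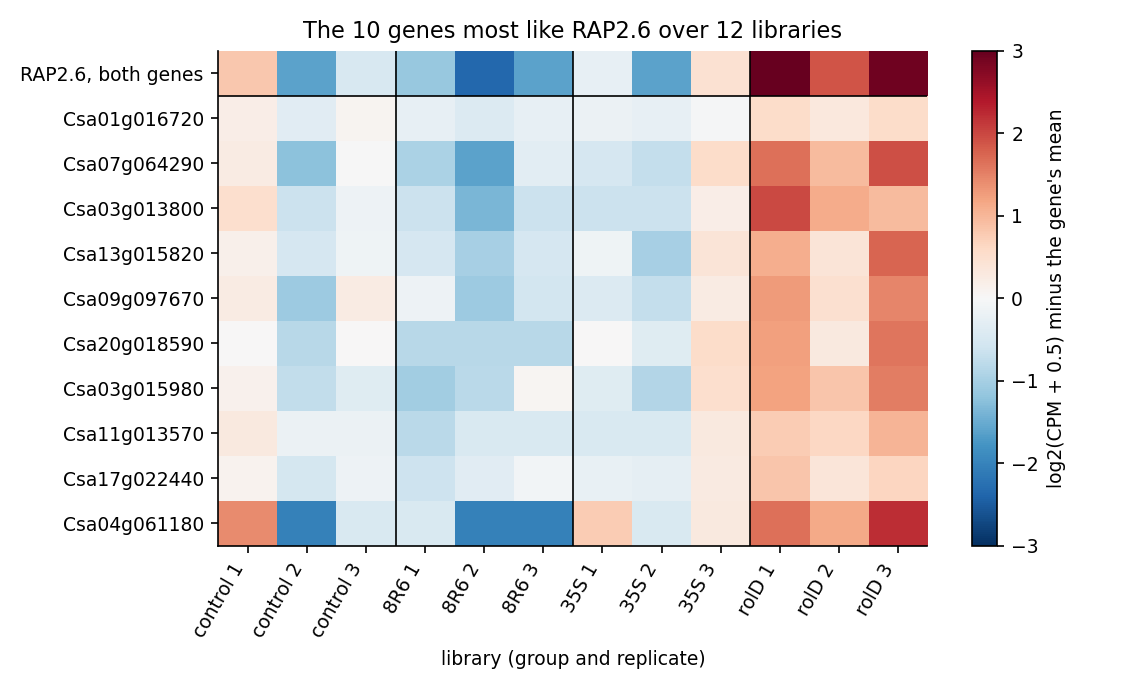
Heat map of log2(CPM + 0.5) minus the gene's own mean, for the summed RAP2.6 genes (top row) and the 10 genes with the highest Pearson's r to them, in the 12 libraries ordered by group and replicate. The *rolD::acdS* columns are the reddest in nearly every row, and within the control group replicate 1 is above replicate 2 in each row.

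The other jasmonate genes listed by the study were read beside RAP2.6. They were chosen by the study on these libraries, so their direction is not independent evidence. All 13 with values had a positive log2 difference between *rolD::acdS* and control, with a median of 1.22 against 0.00 over all tested genes; 12 passed an unadjusted p of 0.05, as 6.86% of tested genes did, and limma called 0. Csa20g009360 and Csa13g009030, orthologs of ST2A, a sulfotransferase acting on hydroxyjasmonate, had the highest values, 2.50 (SE 0.89) and 2.29 (SE 0.73). Csa20g009360 stood at 29, 4 and 22 CPM in control and at 162, 45 and 72 CPM in *rolD::acdS*. Its *rolD::acdS* libraries were all above the controls, with replicate 1 highest and replicate 2 lowest, the order that Csa03g046520 also had there.

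Genes of jasmonate synthesis and signalling had smaller differences than RAP2.6. AOS (Csa20g066350), whose enzyme catalyses the first committed step of jasmonate synthesis, went from a mean of 33 to 58.3 CPM, a log2 difference of 0.78 (SE 0.21). The JAZ10 gene Csa08g005100 went from 16.7 to 35.3 CPM, and the JAZ9 gene Csa16g032280 from 9.67 to 21.3 CPM, log2 differences of 1.00 each. OPR2 (Csa16g040840), an oxophytodienoate reductase gene, was the exception at 0.06, with 9, 11 and 20 CPM in control and 28, 8 and 10 CPM in *rolD::acdS*. In the other groups the same list lay near all genes, with a median of -0.12 for 8R6 against control, where 0 of 13 passed an unadjusted p of 0.05, and -0.01 for *35S::acdS* against control, where 1 did. In *rolD::acdS* against 8R6 and against *35S::acdS* the medians were 1.49 and 1.06, and limma called 0 of 13 in both, with 12 and 11 at an unadjusted p of 0.05, 1 of the 11 (OPR2) lower in *rolD::acdS*. Of all tested genes, 13% and 7.53% passed it in these comparisons.

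For genes listed from *rolD::acdS* against control, the 9 libraries outside *rolD::acdS* took part in the choice only through the 3 controls. OPR2, at 0.06 in that contrast and 1.20 in *35S::acdS* against control, may have been listed from other libraries. The likeness to RAP2.6 in these 9 libraries was uneven across the jasmonate genes. The JAZ10 genes Csa13g015820, Csa20g018590 and Csa08g005100 had r of 0.93, 0.85 and 0.73 with the summed RAP2.6 level. ST2A (Csa13g009030 and Csa20g009360) had 0.73 and 0.71, JAZ9 0.69 and ST2B (Csa08g057450) 0.69. AOS had 0.46, and HPL1, OPR2, JAZ7, JR1 and Csa06g030650 had values between -0.08 and 0.26. In these 9 libraries 7 of the 13 were above 0.565, the 95th percentile of all genes, and the median of the list was 0.69 against 0.00 over all genes. Those 7 are the JAZ10, JAZ9, ST2A and ST2B genes, so homeologs that may share reads are counted separately. These r describe 9 libraries of 3 groups and were not tested.

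The other AP2/ERF genes listed by the study, also chosen on these libraries, were divided. Between *rolD::acdS* and control their median log2 difference was 0.26 over 8 genes with values, 3 of them higher at an unadjusted p of 0.05, against 6.86% of tested genes in either direction, and 0 called by limma. Those 3 were the TOE3 genes, relatives of APETALA2 that repress flowering in Arabidopsis, and the low gene Csa09g080130. The study's text reports further AP2/ERF genes beside RAP2.6 as up-regulated in *rolD::acdS*, without naming them. The list thus mixes genes chosen on different contrasts, and its division and these 3 values are not independent evidence. TOE3 (Csa18g040290) stood at 10, 8 and 9 CPM in control and 14, 14 and 18 CPM in *rolD::acdS*, and the other, Csa02g075520, at 2, 2 and 1 CPM and 4, 4 and 5 CPM. For both TOE3 genes the *rolD::acdS* libraries lay above all 9 others, as for Csa03g046520. The share of tested genes above all 9 was not counted, and above the controls alone it was 2.99%. For the TOE3 genes r with the summed RAP2.6 level over the 12 libraries was 0.86 and 0.89. The study listed the ERF6, ERF105 and ERF106 genes as higher in 8R6 than in control, so their 8R6 values describe that choice. In the 8R6 group, where RAP2.6 had its lowest means, the ERF105 genes had their highest means, and Csa11g082690 stood at 12, 7 and 11 CPM in control and 14, 43 and 84 CPM in 8R6. ERF106 (Csa20g010010) stood at 6, 6 and 8 CPM in control and 11, 17 and 13 CPM in 8R6, a log2 difference of 0.97 (SE 0.20, limma adjusted p of 0.874). For 8R6 against control the list's median was 1.17, or 1.37 without Csa09g080130, which is listed at 0 in 8R6, with 4 genes higher and 1 lower at an unadjusted p of 0.05, against 5.41% of tested genes in either direction, and 0 called. Over the 9 libraries outside *rolD::acdS*, r with RAP2.6 was -0.53 for ERF106, between -0.26 and -0.09 for the ERF105 genes, and 0.48 and 0.58 for the TOE3 genes Csa18g040290 and Csa02g075520. These r include the 8R6 libraries that chose the ERF genes. With each group's mean subtracted, r over the 12 libraries was -0.06 for ERF106, 0.12 to 0.39 for the ERF105 genes, and 0.19 and 0.51 for the TOE3 genes.

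**Figure D4:**
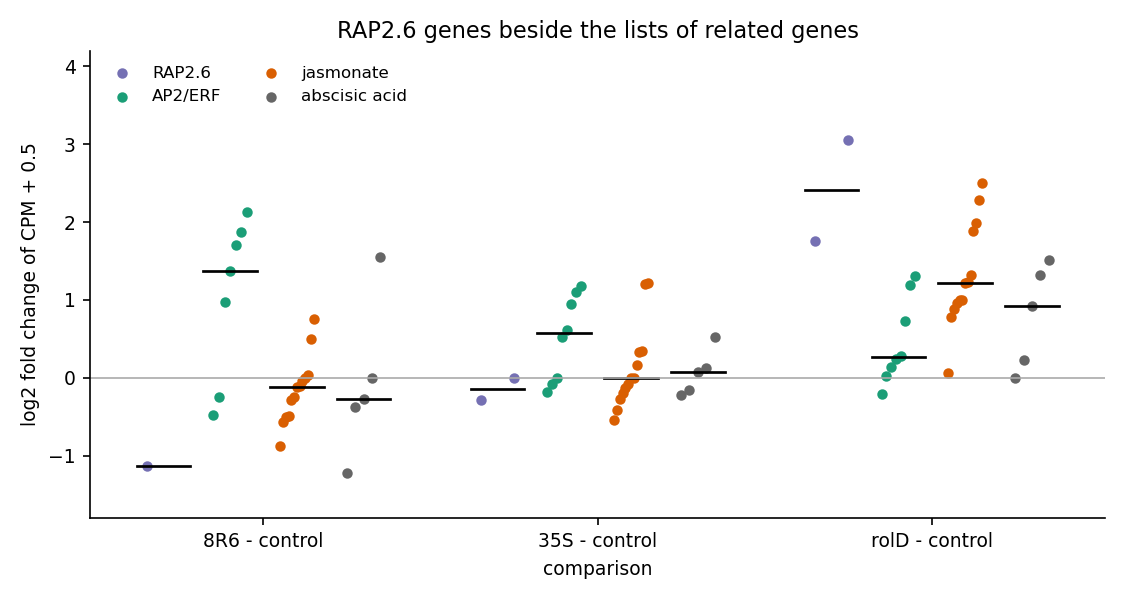
Log2 fold change of CPM + 0.5 against control for each gene of the RAP2.6, AP2/ERF, jasmonate and abscisic acid lists; points are genes, black lines are medians of the points drawn, and genes listed at 0 throughout 1 of the groups compared are left out. The jasmonate genes lie above 0 in *rolD::acdS*, at 0.06 to 2.50, and around 0 in the other groups. In 8R6, 5 AP2/ERF genes lie high, and the study listed these as higher in 8R6.

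Of the abscisic acid genes, NCED3 (Csa19g021150), whose enzyme catalyses the rate-limiting step of abscisic acid synthesis, stood at 9, 7 and 5 CPM in control, 3, 2 and 3 in 8R6, and 6, 8 and 4 in *35S::acdS*. In *rolD::acdS* it stood at 6, 8 and 11 CPM. Its *rolD::acdS* and control libraries overlapped, and its 8R6 libraries lay below the controls, by 1.23 on the log2 scale (limma adjusted p of 0.874). The receptor gene PYL6 (Csa05g012440) did not pass 2 CPM in any library. The study also places 3 vacuolar invertase genes under abscisic acid signalling, among them Csa03g015980 of the most like genes. Csa17g016450 went from a mean of 35.7 CPM in control to 68.7 CPM in *rolD::acdS*, and Csa14g015170 from 5.33 to 13.7 CPM. All *rolD::acdS* libraries were above all control libraries for each of the 3, as for 2.99% of tested genes. For Csa17g016450, Csa14g015170 and Csa03g015980, r with RAP2.6 over the 12 libraries was 0.77, 0.86 and 0.92. Over the 9 libraries outside *rolD::acdS* it was 0.47, 0.48 and 0.70. The median log2 difference of the 5 genes between *rolD::acdS* and control was 0.92, with 3 (the invertase genes) at an unadjusted p of 0.05, against 6.86% of tested genes, and limma called 0 of the 5 in any comparison. The study listed the invertase genes as higher in *rolD::acdS*, and they were added here after their values were seen. This median and this count rest on that choice and are not independent evidence. NCED3 differed by 0.23, and PYL6 had a mean of 0.333 CPM in both groups.

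Genes beside the RAP2.6 genes in identifier order gave no like difference. The 5 rows on each side of Csa03g046520 had log2 differences between *rolD::acdS* and control of -0.69 to 0.49, and the 9 tested rows around Csa17g069360 had -0.22 to 0.18. In none of the 19 did the *rolD::acdS* and control libraries separate, while 2.99% of tested genes were separate and higher in *rolD::acdS*. Of the 19, 0 passed an unadjusted p of 0.05 in limma, the smallest being 0.0766, against 6.86% of tested genes. With so few rows, counts of 0 are near these shares, and nothing is read from them. The physical distance between these rows was not used here.

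**Figure D5:**
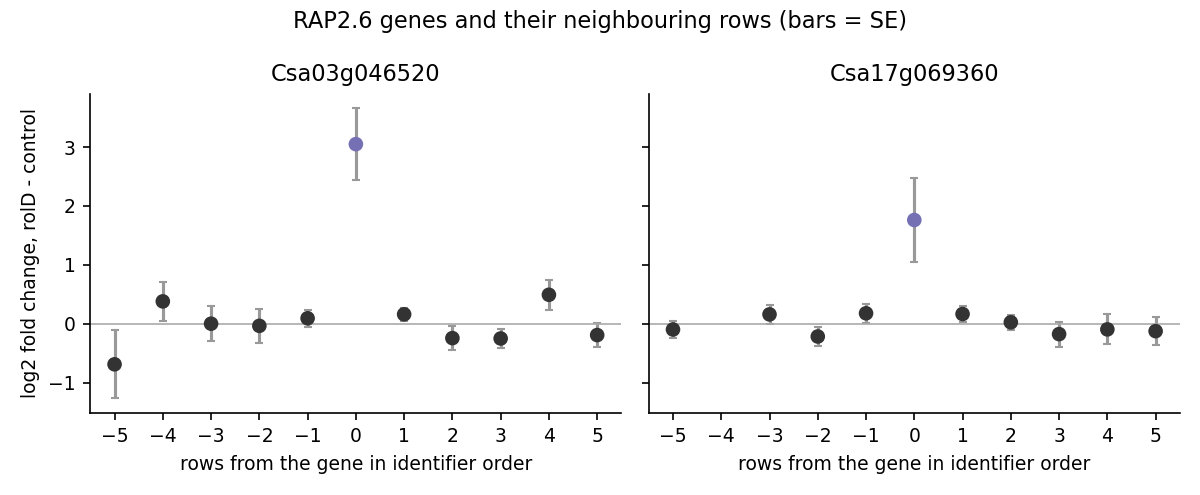
Log2 fold change of CPM + 0.5 between *rolD::acdS* and control for each RAP2.6 gene (purple, at 0) and the 5 rows on each side of it in identifier order; bars are the SE from limma. The neighbours lie between -0.69 and 0.49, and the RAP2.6 genes at 3.05 and 1.76.

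Among the shoot marker genes, the highest sums, 10 and 20 CPM, were in *35S::acdS* replicates 2 and 3, where Csa03g046520 stood at 2 and 8 CPM, and they summed to 4, 6 and 7 CPM in the *rolD::acdS* libraries with 56, 27 and 51 CPM of Csa03g046520. One of them, Csa01g026130, did have its highest values in *rolD::acdS*, at 1, 1 and 2 CPM, against 0, 0 and 1 CPM in *35S::acdS* and 0 in every control and 8R6 library. Since the study named Csa01g026130 as up-regulated in *rolD::acdS* and the other markers as up-regulated in *35S::acdS*, these patterns describe that choice. The part of shoot tissue in the RAP2.6 levels was not tested.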

How the data were processed

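Roots of 4 groups with 3 replicates were profiled by stranded RNA-seq. Per the study's methods, reads were trimmed with Trimmomatic and aligned with STAR to the camelina reference genome and to NCBI transcripts; versions are not given in the sources used here. The authors deposited 1 matrix of CPM for 49932 genes. All deposited values are whole numbers, so they were treated as a score, CPM apparently rounded by the authors, and no count model was run. The raw depth behind a library is unknown.

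Genes with at least 1 CPM in at least 3 libraries were tested (48099; 1453 were at 0 throughout) on log2(CPM + 0.5) in 1 limma 3.58.1 fit (R 4.3.3) of 4 group means over 12 libraries, with a trend in the prior variance and Benjamini-Hochberg adjustment over all tested genes. Calls needed an adjusted p no larger than 0.05 and a log2 fold change above 0.8 in size. The study used edgeR on counts, which was not possible here. The fit was tested on simulated data. Homeolog shares were compared by two-sided exact permutation tests (Python 3.11.15, numpy 2.4.6). Both genes passed the filter. Named genes were the RAP2.6 genes, the 10 genes of highest Pearson's r to their sum, every gene of the study's AP2/ERF, jasmonate and abscisic acid lists and the 5 rows on each side. Members and lists were chosen with earlier results of these data known. The 3 vacuolar invertase genes of the abscisic acid list were added after their values were seen. ERF13 and 1 JAZ10 gene had no row and were not analysed here. Alternatives were other pseudocounts, filters, scalings, priors and groups fitted, a replicate block and leaving out each library. No sequence of these genes was used here.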

Additional observations from a re-analysis of the deposited data

How the results depend on the processing

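Under all alternatives Csa03g046520 remained higher in *rolD::acdS* than in control, with log2 differences of 2.52 to 3.68 when single libraries were left out and 2.91 to 3.18 otherwise. The number of RAP2.6 genes called was 0 in every comparison when single libraries were left out, except *rolD::acdS* against 8R6, where it was 0 to 1. There it was 1 (Csa03g046520) with genes of a mean of at least 5 CPM (adjusted p 0.0444), which tests fewer genes and drops Csa17g069360, with the replicate block (0.0195) and without control replicate 1 (0.0293); apart from the fewer genes tested, the cause was not tested. For *35S::acdS* against control the sign turned: Csa03g046520 was 0.0021 with median-of-ratios size factors, and -0.54 to 0.62 with single libraries left out, where Csa17g069360 was -1.06 to 0.10. Of the listed genes, 1 (the TOE3 gene Csa18g040290) was called in *rolD::acdS* against 8R6 with the 5 CPM mean filter and with robust empirical Bayes. Spearman's rho kept 6 of the 10 most like genes.

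Counts of called genes over the whole matrix were unstable. For *rolD::acdS* against 8R6, 4 genes became 24 with the 5 CPM mean filter, 27 with robust empirical Bayes, 1 with the replicate block and 44 with a fit of only those 2 groups, and 0 to 53 with single libraries left out. In the other comparisons, where 0 to 2 genes were called, the other settings gave 0 to 74, highest in fits of only the 2 groups compared, and leaving out single libraries gave 0 to 22.

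Residuals of same-numbered libraries had correlations of -0.14 to 0.40 over 18 pairs, 10 of them above 0.1. In 10 of the 18, r was higher than with the differently numbered libraries of the other group. The labels do not say whether a number stands for a shared batch, and this was not tested. The block result therefore rests on a shared number only. Whole-number CPM limit what can be seen of Csa17g069360.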
